A study of Mus musculus with 4 samples.

Results

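Heterotrimeric G proteins and the enzymes that turn their signal into cyclic AMP were followed at their mRNA 3′ ends in the CA1 neuropil of the mouse hippocampus. The members were all polyA sites whose gene name in the deposited table began with Gna, Gnb, Gng, Rgs, Adcy or Pde and continued with a subunit or isoform number or letter. This rule chose 64 of 9297 sites, 39 of 7202 gene names and 304 of 34672 tags, and it used names only and no measured value. The samples were 4 replicate cTag-PAPERCLIP libraries of 1 group, so the data hold no treatment, no second compartment and no control. All came from C57BL/6 mice of the genotype Camk2a-Cre x Pabpc1-cTag, in which Cre recombinase driven from the Camk2a promoter, active mainly in excitatory forebrain neurons, switches on GFP-tagged Pabpc1, a protein that binds poly(A) tails. Per the study's methods each replicate was a pool of adult mice, and the labels give neither age nor sex. The neuropil beside the CA1 cell bodies holds dendrites of pyramidal neurons together with axons, glia and vessels, and fragments (tags) crosslinked to Pabpc1 mark the ends of polyadenylated RNAs.

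A G protein consists of an alpha subunit, which binds GTP, and a tightly paired beta and gamma subunit. Receptors for dopamine, noradrenaline, acetylcholine, GABA and glutamate load the alpha subunit with GTP, and RGS proteins speed up its hydrolysis and so shorten the signal. Alpha subunits of the Gs class stimulate adenylyl cyclases, those of the Gi class inhibit them, and those of the Gq class act on phospholipase C. Phosphodiesterases break down cyclic AMP and cyclic GMP. In hippocampal neurons, cyclic AMP made by calcium-stimulated cyclases feeds protein kinase A signalling in long-lasting synaptic plasticity.

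The sequences around the sites that carried the members' tags are shown first, because the polyA signal and internal runs of A in them bear on whether a site is a 3′ end. Each line gives the RNA strand as DNA letters, 5′ to 3′, over 30 bases from 14 bases upstream to 15 bases downstream of the listed position, read from the RefSeq GRCm38.p6 (mm10) genome, with the hexamers AATAAA and ATTAAA in capitals.
Adcy1 distal site, chr11:7178467-7178496, plus strand: ttatttaacaaaAATAAAggagaaaaattg
Adcy1 proximal site, chr11:7178021-7178050, plus strand: cccacttctggagttccttacttaaaaaaa
Gnb1 distal site, chr4:155559230-155559259, plus strand: ctgttatttaagatgtAATAAAgcagtttg
Gnb1 proximal site, chr4:155557778-155557807, plus strand: taaaaggaaatactacAATAAAaatgttaa
Gna11 distal site, chr10:81528732-81528761, minus strand: ctgttttaaatcggAATAAAttttgttcct
Gna11 proximal site, chr10:81530597-81530626, minus strand: ttgaggtttttttttttcttagaaaacaaa
Gnao1 distal site, chr8:93969352-93969381, plus strand: ttcctgtgtagctcAATAAAgagaatgttt
Gnao1 proximal site, chr8:93960660-93960689, plus strand: ccaccattAATAAAaagtgccagctctttc
Gnaq site inside the gene, chr19:16387425-16387454, plus strand: acccatataaAATAAAgtgtacccaaatat
Gnaq site past the gene end, chr19:16388476-16388505, plus strand: cccctatgatcttactggttaaaaatacag
Gnai2 main site, chr9:107614136-107614165, minus strand: atgatttgaaatAATAAAatgtagaaagaa
Gnas short-transcript site, chr2:174338046-174338075, plus strand: acgctcctgataAATAAAactctctgcatg
Gnas full-length site, chr2:174346669-174346698, plus strand: taaatgaaattcaaaatgaAATAAAtattg
Gng13 site, chr17:25719052-25719081, plus strand: taaggtgtgactttataaatagacttctcc
Rgs4 main site, chr1:169741488-169741517, minus strand: atcttaatgatgacagtaAATAAAtgcttc
Rgs7bp site, chr13:104945919-104945948, minus strand: tattacttgtgtAATAAAaactaataataa
Pde1a main site, chr2:79834462-79834491, minus strand: gattgctgAATAAAtcatattcgatggaaa
Pde4d intron site with a run of A, chr13:108837835-108837864, plus strand: tctcttcctgtctaaaaaaaaaaaaaaaaa
The main sites of Adcy1, Gnb1, Gna11, Gnao1, Gnai2 and Gnas all hold AATAAA in this window, whereas the Gng13 window and the proximal windows of Adcy1 and Gna11 hold neither hexamer.

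Members took 0.793%, 1.29%, 0.673% and 0.853% of the tags of replicates 1 to 4 (127, 85, 40 and 52 tags), a mean of 0.901% ± 0.267 (SD, n = 4). The 95% Wilson intervals were 0.667% to 0.943%, 1.04% to 1.59%, 0.494% to 0.915% and 0.651% to 1.12%. Replicate 2 thus lay above replicates 1 and 3 by more than counting error. Once Bc1-like sites (which resemble the short noncoding RNA Bc1) were left out, it lay above replicates 3 and 4 but not above replicate 1. The calcium-stimulated cyclase Adcy1 accounted for 101 of the 304 tags (33.2%). Without it the shares were 0.518%, 0.696%, 0.605% and 0.623%, or 0.611% ± 0.0731 (SD, n = 4), over 203 tags of the other 38 genes. Tags were found at 42, 23, 29 and 21 member sites and for 30, 18, 21 and 19 member genes in replicates 1 to 4. The replicates held 16017, 6609, 5947 and 6099 tags in all, and where a gene had no tag its share could still be as high as 0.0187%, 0.0454%, 0.0504% and 0.0492% (3 tags). Intervals and limits cover counting error only, since amplified tags are not independent molecules, and in tissue samples fewer cells of a type and less RNA per cell cannot be told apart. In replicate 1, 5265 tags lay at Bc1-like sites, against 777, 154 and 126 in the other replicates. No member site was Bc1-like, and with those sites left out of the totals the mean member share was 1.05%. The intervals were then 0.994% to 1.40%, 1.18% to 1.8%, 0.508% to 0.939% and 0.665% to 1.14% in replicates 1 to 4.

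By role, adenylyl cyclases held 37.5% of the member tags, alpha subunits 26.6%, the single beta subunit gene 10.5%, phosphodiesterases 9.87%, gamma subunits 7.89% and RGS proteins 7.57%. The alpha subunits had 10 genes, 20 sites and 81 tags. Their share was 0.256%, 0.257%, 0.252% and 0.131% of replicates 1 to 4, close together in the first 3 replicates and lowest in replicate 4. With Bc1-like sites left out of the totals it was 0.381%, 0.291%, 0.259% and 0.134%, still lowest in replicate 4 but no longer close together in the others. The cyclases, with 5 genes, 9 sites and 114 tags, took 0.300%, 0.605%, 0.135% and 0.295%. The cyclase share was thus highest in replicate 2 and lowest in replicate 3. Ordered by mean share, cyclases stood at 0.334% ± 0.197, alpha subunits at 0.224% ± 0.0620, the beta subunit at 0.106% ± 0.0948, phosphodiesterases at 0.103% ± 0.0661, RGS proteins at 0.0713% ± 0.0364 and gamma subunits at 0.0634% ± 0.0363 (SD, n = 4). Neighbours in this order lay within 1 SD of each other, except that alpha subunits stood apart from the beta subunit by more than either SD. The place of the beta subunit, scored on Gnb1 alone, rested on replicate 2, without which its mean was 0.0607%, below phosphodiesterases (0.122%) and RGS proteins (0.0850%). With sites named by annotation, which adds a Gnb2 site described further on, beta subunits stood at 0.153% ± 0.114 (SD, n = 4). The RGS and phosphodiesterase values include Rgs7bp and Pde4dip, which are not themselves such proteins. Without them RGS proteins stood at 0.0558% ± 0.0232, below gamma subunits, and phosphodiesterases at 0.0849% ± 0.0556.

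**Figure D1:**
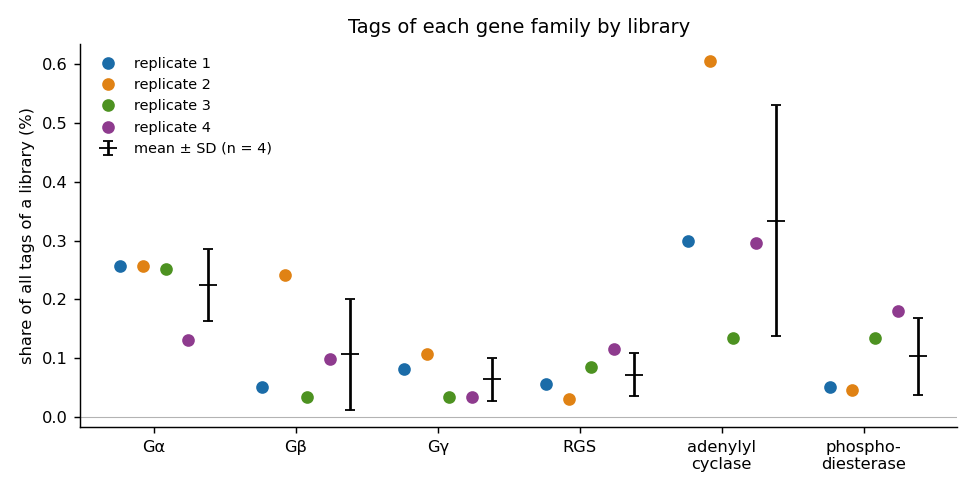
Share of all tags of a replicate, in percent, for each of the 6 gene families, with 1 point per replicate and the mean ± SD (n = 4) beside the points. Alpha subunits lie at 0.252% to 0.257% in replicates 1 to 3 and at 0.131% in replicate 4, while cyclases range from 0.135% to 0.605%.

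Most member genes had few tags. A total of 8 genes had at least 10 tags, 12 had 4 to 9 and 19 had up to 3, of which 8 had 1 tag. The median was 4 tags per member gene, against 2 over all gene names. Because the tags mark 3′ ends, counts were not divided by transcript length. Tags were present in more than 1 replicate for 29 of 39 member genes (74.4%), against 47.4% of all gene names, and in all 4 replicates for 5 (12.8%), against 7.76%. The 5 genes were Adcy1, Gnb1, Gna11, Gnao1 and Gnaq. Detection rises with the number of tags, and 20.5% of member genes had 1 tag against 43.7% of all names. By site, 33 of 64 (51.6%) had tags in more than 1 replicate, against 34.2% of all sites.

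Adcy1, the cyclase that calcium and calmodulin stimulate, had 44, 39, 4 and 14 tags in replicates 1 to 4. These counts were 0.275%, 0.590%, 0.0673% and 0.230% of the replicates, a mean of 0.290% ± 0.219 (SD, n = 4) and rank 20 of all gene names by mean share. Without replicate 2 the mean was 0.191% ± 0.109 (SD, n = 3) and the rank 34. Replicate 2 was highest and replicate 3 lowest, and their Wilson intervals (0.432% to 0.806% and 0.0262% to 0.173%) did not overlap. The question of whether a gene's share differed between replicates by more than counting error was put to every gene with 10 or more tags. Its chi-square statistic was compared with random draws of the tags (a permutation test), and p-values were adjusted by Benjamini-Hochberg over all genes tested. Of 533 genes tested, 217 (40.7%) had an adjusted p under 0.05, and of 8 member genes 3 (37.5%) did. Adcy1 had an adjusted p of 0.000549 in this permutation test, from the smallest raw p that the resamples can give (0.0001). Without replicate 2 the adjusted p of Adcy1 was 0.0525 in the same permutation test, and it was under 0.05 without any of the others.

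Gnb1, the only beta subunit gene among the member names, had 8, 16, 2 and 6 tags, or 0.0499%, 0.242%, 0.0336% and 0.0984%, a mean of 0.106% ± 0.0948 (SD, n = 4). Like Adcy1 it was highest in replicate 2 and lowest in replicate 3. Its share differed between replicates (adjusted p = 0.00185, permutation test), but not when replicate 2 was left out (adjusted p = 0.438, permutation test). Markers of other cells also differed between replicates. The 6 oligodendrocyte markers, all with tags, took 0.281%, 0.545%, 0.185% and 0.131%, of which Mbp, a myelin protein, had 20, 27, 6 and 2 tags, so they were highest in replicate 2 like Adcy1 and Gnb1, but lowest in replicate 4. The blood markers, of which 3 of 6 names had tags and the names Hba-a2, Hbb-b2 and Hbb-bs had none, took 0.0250%, 0.560%, 1.28% and 0.148%. The site named Hbb-b1, with 96 of these tags, lies in the annotated 3′UTR of Hbb-bs. The blood markers were highest in replicate 3, where Adcy1 and Gnb1 were lowest. Their part in the differences of Adcy1 and Gnb1 was not tested.

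Among the alpha subunits, Gna11, a Gq class subunit, had 10, 3, 2 and 4 tags, a mean share of 0.0518% ± 0.0150 (SD, n = 4). Gnao1, the Go subunit that is abundant in brain, had 10, 2, 3 and 2 tags, or 0.0440% ± 0.0152. Gnaq, the other widely expressed Gq class subunit, had 5, 2, 2 and 1 tags, or 0.0279% ± 0.00778. For these genes the shares did not differ between replicates beyond counting error, with adjusted p of 0.900, 0.773 and 0.956 in the permutation test. Gna11 and Gnao1 did not differ in mean share beyond their SD. Gnai2, an inhibitory subunit, had 2, 5, 5 and 0 tags, so it was high in replicates 2 and 3 and had no tag in replicate 4, where up to 0.0492% is allowed. Its share differed between replicates (adjusted p = 0.0226, permutation test), but not without replicate 1 (0.134), without replicate 4 (0.0555) or with Bc1-like sites left out of the totals (0.0572). Gnas, the locus of the stimulatory subunit, had 8, 3, 0 and 1 tags, of which 1 lay at the end of the full-length transcripts, and no difference past the threshold (adjusted p = 0.389, permutation test). The other alpha subunits were Gna12 with 4 tags, the inhibitory Gnai1 with 3, Gnaz with 2, and Gna13 and the inhibitory Gnai3 with 1 each.

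Of the gamma subunits, Gng13 had 12 tags, 7 in replicate 1 and 5 in replicate 2, and none in replicates 3 and 4. This difference did not pass the threshold (adjusted p = 0.0940, permutation test), and a share of up to 0.0504% and 0.0492% is allowed in the empty replicates. Gng2 and Gng7 had 4 tags each, with Gng7 in replicates 1 and 2 only and Gng2 in replicates 1, 3 and 4. Gng3, Gng4, Gng10 and Gng12 had 1 tag each. Gng13, Gnas, and the RGS and phosphodiesterase genes described further on were picked out after their values were seen.

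**Figure D2:**
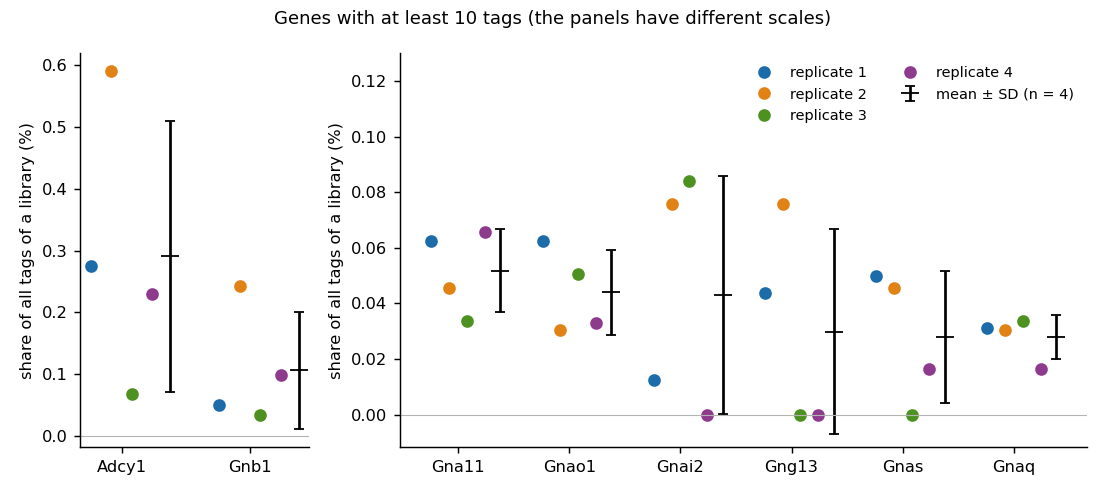
Share of all tags of a replicate, in percent, for the 8 member genes with at least 10 tags, with 1 point per replicate and the mean ± SD (n = 4), on a separate scale for Adcy1 and Gnb1. Both of these are highest in replicate 2 (0.590% and 0.242%), while Gna11, Gnao1 and Gnaq have tags in every replicate at similar shares.

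Genes with an Rgs name were thinly covered, with 9, 2, 5 and 7 tags in replicates 1 to 4, or 7, 2, 4 and 5 without Rgs7bp. Rgs4, a brain member of the R4 group that acts on Gi and Gq class subunits, led with 3, 0, 2 and 3 tags. Rgs7bp, which anchors R7 group RGS complexes at the membrane and is not itself an RGS protein, had 2, 0, 1 and 2 tags. Both had no tag in replicate 2, where Adcy1 and Gnb1 were highest, but a share of up to 0.0454% is allowed there. By group, 2 of 10 R4 genes (Rgs4 and Rgs16), 1 of 4 R7 genes (Rgs6), 2 of 3 RZ genes (Rgs17 and Rgs20) and 2 of 3 R12 genes (Rgs10 and Rgs14) had a tag under their own name. Rgs14, which is known for its role in plasticity of hippocampal CA2 neurons, had 2 tags, both in replicate 1.

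Outside Adcy1 the cyclases held 13 tags. The calcium-inhibited Adcy5 and Adcy6 had 3 and 2 tags, and Adcy2 and Adcy9 had 4 each. Of the other calcium-stimulated cyclases, neither Adcy3 nor Adcy8 was named at any site, and the soluble Adcy10 was not named either. Adcy1 thus made up 101 of the 114 cyclase tags, at counts of 44 of 48, 39 of 40, 4 of 8 and 14 of 18 in replicates 1 to 4.

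Genes with a Pde name had 8, 3, 8 and 11 tags, or 7, 2, 8 and 8 without Pde4dip. The calmodulin-stimulated Pde1a had 2, 0, 1 and 3 tags and Pde1b 0, 1, 1 and 2, and Pde10a, which like them hydrolyses both cyclic nucleotides, had 1, 0, 3 and 0. These dual enzymes held 14 tags over 3 of 8 listed genes. The cyclic AMP-selective enzymes held 11 tags over 4 of 8 genes, with 4 for Pde8b, 3 for Pde4d, and 2 each for Pde4a and Pde7b. None of the 7 listed cyclic GMP-selective enzymes was named at a site, which allows a share of up to 0.0187% to 0.0504% in a replicate. Pde4dip, a scaffold protein that binds phosphodiesterase and has no such activity itself, had 1, 1, 0 and 3 tags.

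The study asked which 3′UTR isoforms localize to dendrites, and called them by comparing neuropil with cell bodies. The position of the sites shows which ends were tagged in neuropil, but without cell body libraries not which isoforms are preferred there. Of the 64 member sites, 51 (79.7%) lay in an annotated 3′UTR, against 76.5% of all sites, 6 (9.38%) in an intron, against 5.30%, and 7 (10.9%) between genes, against 15.3%. By tags, 93.1% of member tags lay in a 3′UTR, against 70.2% of all tags, or 85.6% of all tags when Bc1-like sites were left out. All 6 intron sites, 3 of them in Pde4d with 1 tag each, were seen in 1 replicate only. Of the 33 recurrent member sites, with tags in more than 1 replicate, 30 (90.9%) were 3′UTR sites and 3 (9.09%) lay between genes, against 88.6% and 7.98% of all recurrent sites. Those 3 were sites of Gnaq, Adcy9 (2.61 kb past the gene end) and Pde7b (925 bases past it). A run of at least 8 A, from which an oligo(dT) primer can start, was sought within the 30-base window and not beyond it. It was present at 5 of 13 member sites outside 3′UTRs (38.5%), against 26.3% of all such sites, and at 2 of 51 inside them. The farthest of these were sites named Pde8b, Rgs20 and Gnao1 that lay 599, 42.9 and 16.3 kb past the ends of their genes, with 1 tag each.

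AATAAA or ATTAAA started within 50 bases on either side of 46 of 64 member sites (71.9%, Wilson interval 59.9% to 81.4%), against 78.2% of all sites. In 3′UTRs the figures were 76.5% and 83.2%. AATAAA, the main form, was present at 40 member sites, and at 36 of these (90.0%) it started between 15 bases upstream and 10 bases downstream of the listed position, against 89.9% over all sites. The search covered the strand of the RNA, not both strands, and a site with both hexamers counted as 1. The listed positions lay upstream of the RNA ends, since 37 of the 41 member sites within 100 bases of an annotated transcript end were upstream of it, with a median over the 41 of 23 bases upstream.

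**Figure D3:**
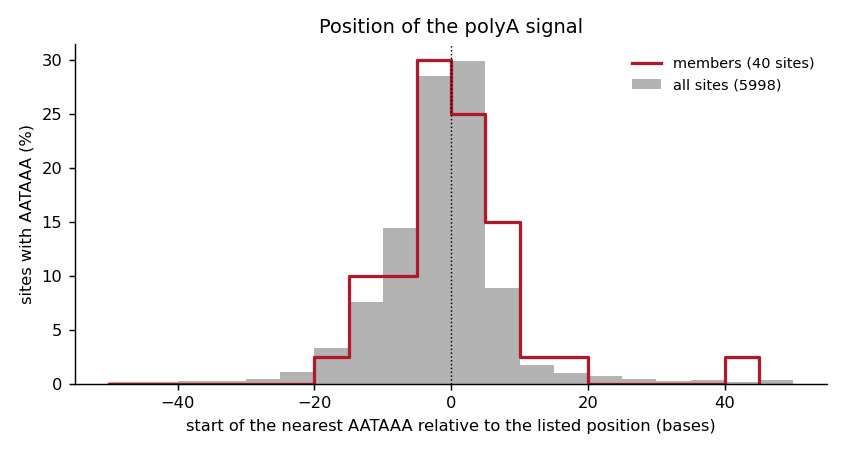
Start of the AATAAA nearest to each site, in bases from the listed position (negative is upstream), as the percentage of the sites with this hexamer in bins of 5 bases, for 40 member sites (line) and 5998 sites of the table (bars). Members peak in the bin that starts 5 bases upstream of the listed position, and all sites in the bin that starts at it. Of member starts, 90.0% fall between 15 bases upstream and 10 bases downstream.

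The 3′UTR up to a member site had a median of 1674 bases (quartiles 561 and 2460), against 960 (388 and 2038) over all sites in 3′UTRs. Among sites in more than 1 replicate the medians were 1960 and 1037. Adcy1 had the longest, 8769 bases, followed by its own proximal site at 8323, Rgs17 at 7268, a further Adcy1 site with 1 tag at 5940, and Rgs7bp at 5560. The shortest was that of Gng13, at 37 bases.

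**Figure D4:**
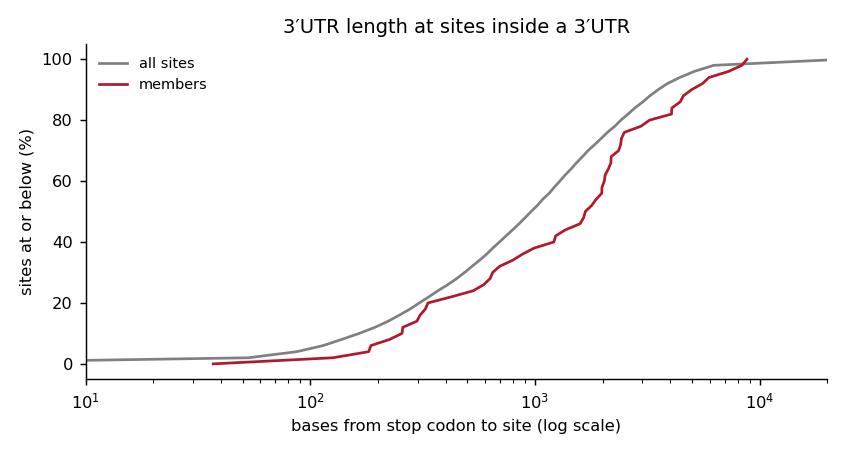
Cumulative percentage of sites in a 3′UTR by the number of bases from the stop codon to the site (log scale), for the 51 member sites and all 7109 such sites. The member curve lies to the right over most of its range, with medians of 1674 and 960 bases.

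A total of 15 member genes (38.5%) had more than 1 site, against 21.7% of all gene names, and in 5 of them several sites recurred in more than 1 replicate. A gene with 1 tag cannot have more than 1 site, and 20.5% of member genes had 1 tag, against 43.7% of all names. In Adcy1, the distal site, 25 bases before the annotated end of the gene, had 34, 38, 3 and 11 tags, and the site 446 bases upstream had 9, 0, 1 and 3. The distal site was thus higher in all 4 replicates, with a log2 ratio of 2.77 ± 2.35 (pseudocount 0.5, SD, n = 4) and p = 0.125 by the exact sign-flip permutation test, two-sided, which is the smallest that 4 replicates allow. Without replicate 2 the log2 ratio was 1.60. The proximal Adcy1 site has no hexamer, and its window ends in 7 A. Bases past the window were not searched, so whether this run reaches the 8 counted here is not known. The split between the Adcy1 sites did not pass the threshold across replicates (adjusted p = 0.0760 over all genes tested, permutation test), although it did without replicate 3 (0.0378). Without replicate 2 the adjusted p was 1 and with all listed sites it was 0.473 (unadjusted 0.158), in the same permutation test. In this test 13 of 50 genes (26.0%) were called, and of the 2 member genes tested none was, with 1 at an unadjusted permutation p under 0.05 (Adcy1, 0.0228).

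In Gnb1, the distal site, 25 bases before the gene end, had 7, 11, 1 and 6 tags, and the site 1452 bases upstream had 1, 5, 0 and 0. The distal site was higher in all 4 replicates, with a log2 ratio of 2.17 ± 1.14 (SD, n = 4; exact permutation p = 0.125). Both sites carry AATAAA and lie in the same 3′UTR, at 1786 and 334 bases from the stop codon, and the split did not differ across replicates beyond counting error (adjusted p = 0.654, permutation test). The same annotated transcripts cover both sites, and each encodes 340 residues.

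In Gna11, the distal site had 9, 3, 1 and 4 tags and the site 1865 bases upstream 1, 0, 1 and 0, a log2 ratio of 2.16 ± 1.46 that was above 0 in 3 of 4 replicates and 0 in replicate 3 (exact permutation p = 0.25). Gnao1 had 6 sites. Those 176, 398 and 1163 bases before the gene end, in the last exon of Gnao1-201, had 3, 4 and 1 tags and were not used in the ratio. The distal Gnao1 site, in the same last exon, had 3, 0, 1 and 1 tags, and the site 8692 bases upstream, in the last exon of Gnao1-207, had 1, 1, 0 and 1. No direction held across replicates (log2 ratio 0.31 ± 1.43, exact permutation p = 1), and the ratio turned to -0.12 without replicate 3. These transcripts end in different last exons and each encodes 354 residues, but only the lengths of their proteins were compared, not the sequences. Gnaq had 3, 1, 1 and 0 tags at the site 24 bases before the gene end and 2, 1, 1 and 0 at a site 1027 bases past it, on the same strand, which shows no hexamer in its window (log2 ratio -0.16 ± 0.28 over 3 replicates, exact permutation p = 1, smallest possible 0.25).

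Over these 5 genes the distal site held 78.6%, 88.3%, 70.0% and 84.6% of the tags at both ends in replicates 1 to 4, on 70, 60, 10 and 26 tags, or 80.4% ± 8.0 (SD, n = 4). Without Adcy1 the mean was 76.1% ± 11.5. Over all 215 genes with such sites it was 61.7% ± 5.74.

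**Figure D5:**
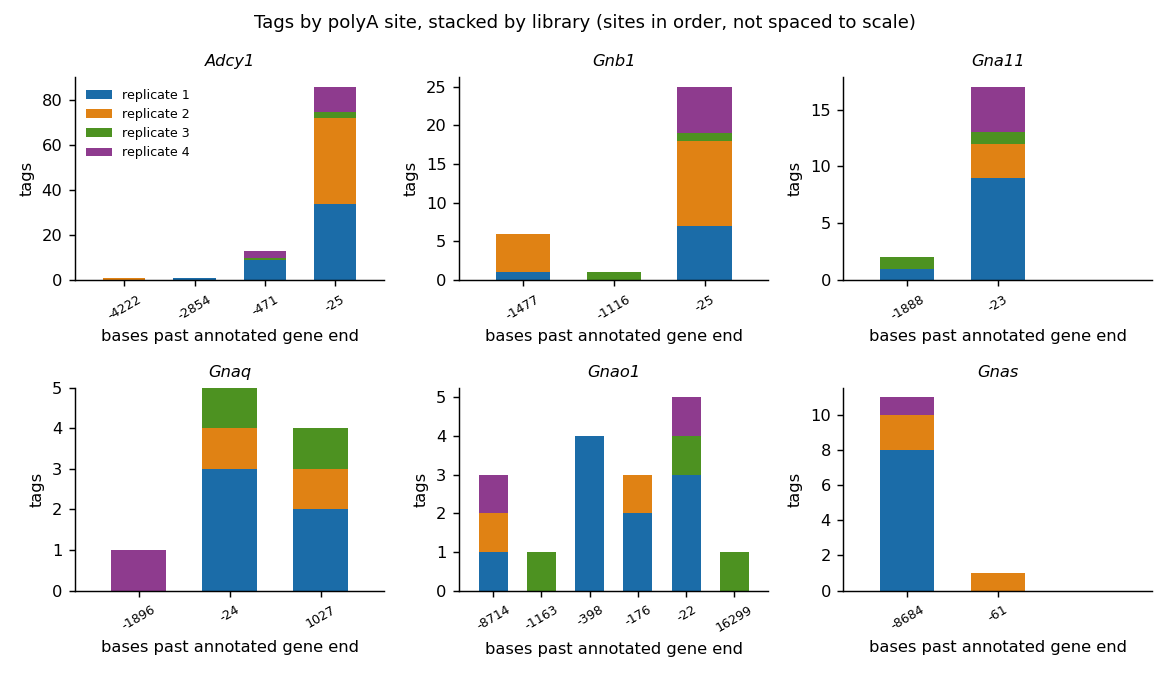
Tags at each listed site of 6 member genes, stacked by replicate, with sites in order along the RNA and named by their bases past the annotated gene end (negative is before it). Adcy1, Gnb1 and Gna11 have most tags at the site 23 to 25 bases before the end, whereas Gnas has 11 of 12 tags 8684 bases before it.

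Some sites marked transcripts that encode different proteins. Gnas is an imprinted locus with several promoters and protein products. Its site 8684 bases before the gene end had 8, 2, 0 and 1 tags, and the site 61 bases before the gene end had 0, 1, 0 and 0. The former lies 24 bases before the ends of the annotated transcripts Gnas-205, Gnas-214 and Gnas-222, which encode 91, 25 and 253 residues, and of the noncoding Gnas-217. Transcripts that end at the latter encode, among others, the 394 and 379 residues of Gnas-208 and Gnas-206. They also include Gnas-211, of 253 residues, as many as Gnas-222 at the former site. The site with most Gnas tags was therefore not at the end of the full-length transcripts, and 8 of its 11 tags came from replicate 1. In Pde1a, the main site (1, 0, 0 and 3 tags) ends transcripts of 545 residues, and a site 24.6 kb before the gene end (0, 0, 1 and 0) ends transcripts of 420, 465 and 456 residues. The Rgs4 site with 1, 0, 2 and 3 tags ends Rgs4-201, of 205 residues, and the site with 2, 0, 0 and 0 tags lies also at the end of Rgs4-202, of 93 residues. The Pde4dip site lies 49.0 kb before the gene end, at the end of Pde4dip-201, of 1118 residues.

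Sites can also carry another name. A site named Mir6418 (chromosome 5, position 137528150, minus strand) lies in the 3′UTR of Gnb2, a second beta subunit, and had 2, 5, 6 and 0 tags, with a share that differed between replicates (adjusted p = 0.0103, permutation test). Like Gnai2, it had most tags in replicates 2 and 3 and none in replicate 4. With this site, chosen after its values were seen, the mean member share was 0.948%. Sites named Mir3097 and Chmp1b lie in the 3′UTRs of Rgs12 and Gnal and had 1 and 2 tags.

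Of 65 other listed gene names of the pathway, 40 had tags, 27 in more than 1 replicate, with 220 tags and a median of 3 for those with tags. Adrbk1 and Adrbk2, listed with no tag, are older symbols of Grk2 and Grk3, which are listed too. By role, 10 of 18 receptor names had 42 tags, 14 of 15 cyclic AMP effectors 93, 6 of 9 kinase anchors 36, 3 of 9 receptor kinase and arrestin names 24, 4 of 7 G protein effectors 20, and 3 of 7 other regulators 5. Some of these sites lay outside their genes. The single tag named Htr1a was 1455 kb past the gene end, the Adra1d sites were 142 and 0.605 kb past it, a Kcnj3 site was 1101 kb past it and the only Kcnj6 site 3.63 kb past it. Of 4 pathway genes with at least 10 tags, 2 differed in share between replicates, against 40.7% of all genes tested. Grk2, a receptor kinase, had 9, 10, 1 and 2 tags (adjusted p = 0.0284, permutation test). Akap8, a kinase anchor, had 22, 2, 2 and 1 (adjusted p = 0.0115, permutation test), of which 26 lay at a Bc1-like site 18.5 kb past the gene end. Rapgef4, a guanine nucleotide exchange factor that cyclic AMP activates, had 26, 10, 2 and 5 tags and did not pass (adjusted p = 0.136, permutation test), nor did Prkar1b, a regulatory subunit of protein kinase A (4, 2, 4 and 1 tags, 0.517).

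The labelled source was checked against markers. Of 10 pyramidal neuron markers, 8 had tags, at 0.252% to 0.337% of a replicate, with the names Camk2a and Slc17a7 at 0. All 8 astrocyte markers had tags, at 0.0984% to 0.287%, as did 4 of 7 interneuron markers, at 0.0303% to 0.246% with Gad2, Slc32a1 and Vip at 0. Of the 33 interneuron tags, 17 lay at a site named Npy (0, 0, 6 and 11 tags) that is between genes, 102.6 kb past the end of Npy, with no hexamer within 50 bases. Microglia and endothelial markers were near 0, with 1 of 6 (2 tags) and 1 of 3 (1 tag). The part of RNA from these cells in the members' counts was not tested.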

How the data were processed

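The authors deposited tag counts, whole numbers with no normalization, per 1-base polyA site with a gene name for each of the 4 libraries. The submitters' processing notes name cutadapt, Novoalign and mm10, and the study's methods name CTK for calling sites. Whether duplicate tags were collapsed, and how tags that match several places were treated, is not given in the sources used here. The libraries held 5947 to 16017 tags.

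All columns of sample values were used (0 unused). Sites were annotated with GENCODE vM21 on their strand, and 3′UTRs took precedence over introns and other classes. A site without a gene name was left out of gene tests, and 3 sites on unplaced scaffolds were not annotated. Shares are percentages of a library's tags, with 95% Wilson intervals. The share and site usage tests were permutation tests (10000 resamples) on genes with at least 10 or 20 tags, called at an adjusted p under 0.05. They measure the spread between these libraries against counting error. Scripts ran in Python 3.11.15 with numpy 2.4.6, pandas 2.3.3, scipy 1.17.1 and pysam 0.24.0, and the tests were tested on simulated data. A site was Bc1-like when at least 10 of 63 words of 12 bases from the first 74 bases of Bc1 lay within 75 bases of it.

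Genes were described in full when they had at least 20 tags, tags in all 4 libraries, several sites that recurred in more than 1 library, or a call in either test. Members and lists were chosen with earlier results of these data known. Alternatives tried were leaving out each library, other totals and size factors, other minimums of tags, site filters, annotated names, hexamer windows and the pseudocount.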

Additional observations from a re-analysis of the deposited data

Results flagged for a closer look

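The share of the alpha subunits was 0.256%, 0.257%, 0.252% and 0.131% in replicates 1 to 4. Replicate 4 stood apart from the other replicates, with a gap to the nearest that was 0.960 of the whole range. Of 17 results checked in this way it was the 1 past the critical gap for 4 samples, where chance gives 0.85. With Bc1-like sites left out of the totals the shares were 0.381%, 0.291%, 0.259% and 0.134%, and the gap was 0.505 of the range, under the critical gap. With all sites in the totals, the counting interval in replicate 4, 0.0665% to 0.259%, reached the values of the other replicates. Without replicate 4 the mean was 0.255% ± 0.00260 (SD, n = 3).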

How the results depend on the processing

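The number of member genes whose share differed between replicates (3) ran from 0 to 2 when 1 replicate was left out, with 0 without replicate 2 (1 of 4 tested at an unadjusted permutation p under 0.05), and over all genes the 217 became 125 to 187. It was 2 with Bc1-like sites left out or a minimum of 20 tags, and 3 with size factors or sites in more than 1 replicate. Site usage gave 0 to 1 member genes on leaving out 1 replicate, the 1 being Adcy1 without replicate 3, and 4 to 6 of all genes in place of 13, with fewer genes tested. Member sites in more than 1 replicate (33) numbered 17 to 27 on leaving out 1 replicate, 17 without replicate 1, 11 with at least 2 tags per replicate and 3 with tags in all 4. The 3′UTR share of sites, 79.7%, was 90.9% for sites in more than 1 replicate and 93.1% by tags. The polyA signal share, 71.9%, was 81.8% for sites in more than 1 replicate and 26.6% with the 50 bases upstream alone, which counts only hexamers that lie whole before the listed position and so leaves out those that overlap it or start downstream. The Gnao1 log2 ratio ran from -0.12 (without replicate 3) to 0.94 (without replicate 2) on leaving out 1 replicate, so its sign reversed, and the Adcy1 ratio from 1.60 (without replicate 2) to 3.28. Without replicate 2 the share of the beta subunit gene was 0.0607% in place of 0.106%. Shares per replicate with Bc1-like sites left out, and families without Rgs7bp or Pde4dip, were added after seeing the data. For the other moves the cause was not tested. The member share ran from 0.773% to 1.05% and the distal share from 74.7% to 82.1% over all alternatives, each within 1 SD of the value reported.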
